A study of Mus musculus with 6 samples.

Results

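The nuclear genes for the subunits of respiratory complex I were followed in the ischemic calf muscle of Gpr174-/Y and wild-type (WT) mice. The 35 members were the nuclear complex I subunit genes named by a fixed list of symbols, and all 35 were found among the 18089 genes of the deposited table. The rule uses no measured value, although the list was drawn up with earlier results of these data known. Each gene's level was the sum of the estimated read counts over its RefSeq transcripts.

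RNA came from the gastrocnemius of male C57BL/6 mice aged 8 to 10 weeks, 7 days after hindlimb ischemia (HLI), in which the femoral artery was ligated and the segment between the ligatures removed. There were 2 groups of 3 mice. WT mice carried Gpr174, and Gpr174-/Y mice (labelled GPR174-KO) were males with a knockout of this X-linked receptor gene that is not limited to a cell type. Both groups had undergone HLI, and muscle without ischemia was not analysed here. Day 7 was the only time point.

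Complex I, or NADH dehydrogenase, takes electrons from NADH in the mitochondrial matrix, passes them through a flavin and a chain of iron-sulfur clusters to ubiquinone, and couples this to the pumping of protons across the inner membrane. Its matrix arm is made of an N module, which oxidizes NADH, and a Q module, which reduces ubiquinone, while its membrane arm holds the proton pumps. A small set of core subunits is conserved from bacteria, and the many accessory (supernumerary) subunits support assembly and stability. Muscle fibres rely on the complex for aerobic ATP production, with oxidative fibres holding more of it than glycolytic ones. The subunits encoded in mitochondrial DNA and Ndufb1 were not analysed here.

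The libraries held 18417077 to 19394469 counts each, so depth differed little. The scaling factors of the trimmed mean of M values (TMM), which correct library totals for composition, were 0.873 to 0.952 in WT and 1.08 to 1.12 in Gpr174-/Y libraries. Gpr174 itself had 8, 2 and 5 counts in the WT libraries and 1, 0 and 0 counts in the Gpr174-/Y libraries, and so few reads give only a coarse check of the genotype. One feature of the libraries touches every result below. Among all tested genes, replicate 2 lay between replicates 1 and 3 of its group for 71.7% of genes in WT and 64.1% in Gpr174-/Y. For the complex I subunits this held for 35 of 35 genes in WT and 32 of 35 in Gpr174-/Y. A given library of 3 independent ones would be the middle one for 33.3% of unrelated genes, and genes are related. The methods give 3 mice a group, and whether the libraries are independent of each other was not tested, so every SD, SE and p below measures only the spread between these libraries.

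The promoters of 32 members were found in RefSeq (mouse build GRCm38.p6), each holding the 250 bases before the annotated start and the first 50 bases from it. Ndufb9, Ndufs1 and Ndufa2 were not matched. The promoters are shown because the members moved together, and the letters of sites known from respiratory genes were searched in them on both strands. Those of 4 genes are printed 5′ to 3′ on the strand of the gene, with matches in capitals. Ndufb4 (chr16:37654319-37654618, minus strand) held the most matches to the NRF1 letters. Ndufs6 (chr13:73328433-73328732, minus strand) held an NRF1 and a YY1 match. Ndufc1 (chr3:51408906-51409205, minus strand) and Ndufa7 (chr17:33824322-33824621, plus strand) are the members with the largest and the smallest decrease. The Ndufc1 window held a YY1 match and the Ndufa7 window none of the searched letters.
Ndufb4: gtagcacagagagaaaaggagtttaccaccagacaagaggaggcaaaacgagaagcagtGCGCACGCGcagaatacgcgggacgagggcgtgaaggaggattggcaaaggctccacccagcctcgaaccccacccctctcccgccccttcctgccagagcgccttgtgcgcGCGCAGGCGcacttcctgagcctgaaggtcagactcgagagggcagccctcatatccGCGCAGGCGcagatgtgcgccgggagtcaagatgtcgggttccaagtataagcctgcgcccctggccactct
Ndufs6: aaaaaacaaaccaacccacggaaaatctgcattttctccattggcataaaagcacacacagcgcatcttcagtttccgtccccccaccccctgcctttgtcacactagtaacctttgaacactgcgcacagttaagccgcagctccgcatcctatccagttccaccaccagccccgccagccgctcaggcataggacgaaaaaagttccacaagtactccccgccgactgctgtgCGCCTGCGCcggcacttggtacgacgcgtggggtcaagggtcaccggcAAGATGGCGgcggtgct
Ndufc1: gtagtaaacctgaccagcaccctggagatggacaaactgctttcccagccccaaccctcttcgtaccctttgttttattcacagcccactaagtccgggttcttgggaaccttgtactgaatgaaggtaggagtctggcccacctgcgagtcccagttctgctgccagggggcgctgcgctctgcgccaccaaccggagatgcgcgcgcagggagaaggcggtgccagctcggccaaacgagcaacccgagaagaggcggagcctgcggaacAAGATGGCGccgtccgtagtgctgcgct
Ndufa7: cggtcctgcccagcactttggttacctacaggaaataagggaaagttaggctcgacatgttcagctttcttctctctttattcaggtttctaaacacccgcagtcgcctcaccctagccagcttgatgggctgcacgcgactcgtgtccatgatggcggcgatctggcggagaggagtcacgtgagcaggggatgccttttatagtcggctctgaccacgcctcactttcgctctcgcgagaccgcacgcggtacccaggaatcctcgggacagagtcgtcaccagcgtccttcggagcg

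NRF1 (nuclear respiratory factor 1) is a transcription factor that binds many respiratory chain promoters. Its letters, searched as GCGCANGCG, were present in 8 of the 32 members' windows (25.00%) and in 10.7% of the 14235 promoters of the same length that belong to genes of the table. In Ndufb4 the matches began 191, 79 and 22 bases before the start, and in Ndufs6 the match began 15 bases before it. The other members with a match were Ndufa5, Ndufa6, Ndufa8, Ndufa11, Ndufb10 and Ndufs5. Letters of YY1, a zinc finger factor, searched as AAGATGGCG, were found in 5 members (Ndufa9, Ndufc1, Ndufs4, Ndufs6 and Ndufs7, 15.6%) against 2.37% of all promoters. They contain ATG, the letters of a start codon, and lay after the start in each of the 5. The ETS letters CCGGAAGT, bound by the GABP complex, were found only in the Ndufs3 window among the 32 (3.12%, against 6.37% of all promoters). The Sp factor letters GGGGCGGGG were found in 5 members (15.6%, against 18.6%). The letters TCAAGGTCA of the estrogen-related receptors were in 0 of the 32 windows and in 0.32% of all promoters. No match of a member overlapped a match of another motif. The median log2 fold change was −0.95 for the 8 members with NRF1 letters and −0.91 for the 24 without, a description without a test. A match of letters is not a binding site, and the window covers only the first bases around the start.

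All 35 complex I subunit genes were lower in Gpr174-/Y than in WT muscle. The decrease was of similar size across the complex, with log2 fold changes from −1.16 (2.24-fold lower) to −0.62 (1.53-fold lower) and a median of −0.92 (1.89-fold lower). Each member passed the edgeR quasi-likelihood test at an adjusted p below 0.05 (range 0.000371 to 0.00392), and 0 members were higher. In the same test 27.6% of the 14395 tested genes were lower and 27% were higher. The median of all tested genes was 0.00 on the log2 scale with an SD of 0.60, whereas the SD over the members was 0.11. All 35 members passed the filter on low counts, with 540 to 6454 counts in any library.

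Summed over the members, the TMM-scaled CPM (counts relative to the scaled size of the library) were 6946, 6269 and 5310 in the WT libraries and 3404, 3272 and 3080 in the Gpr174-/Y libraries. The highest Gpr174-/Y library therefore lay well under the lowest WT library, and the WT libraries were spread more widely than the Gpr174-/Y libraries. The means were 6175 ± 822 and 3252 ± 163 (SD, n = 3 each), a 1.90-fold difference (2-sided exact permutation test, p = 0.1, the smallest that 3 against 3 allows). As a share of all counts, which uses no scaling factor, complex I took 0.606%, 0.567% and 0.506% in WT and 0.367%, 0.359% and 0.345% in Gpr174-/Y muscle, a 1.57-fold difference. As a share of TPM, the deposited values corrected for transcript length, it took 1.4965%, 1.4088% and 1.2635% in WT and 0.9753%, 0.9650% and 0.9431% in Gpr174-/Y muscle. In such bulk tissue, fewer fibres and less of these transcripts per fibre cannot be told apart.

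In each of the 35 genes, every Gpr174-/Y library lay below every WT library, which 32.4% of the tested genes also showed. The gap between the groups, taken as the lowest WT over the highest Gpr174-/Y library, ranged from 1.26-fold to 1.998-fold. The order of libraries was the same from gene to gene: WT replicate 1 was the highest and WT replicate 3 the lowest WT library in all 35 genes, and Gpr174-/Y replicate 3 was the lowest library in 33. The subunits are thus not independent readings of the difference between genotypes.

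**Figure D1:**
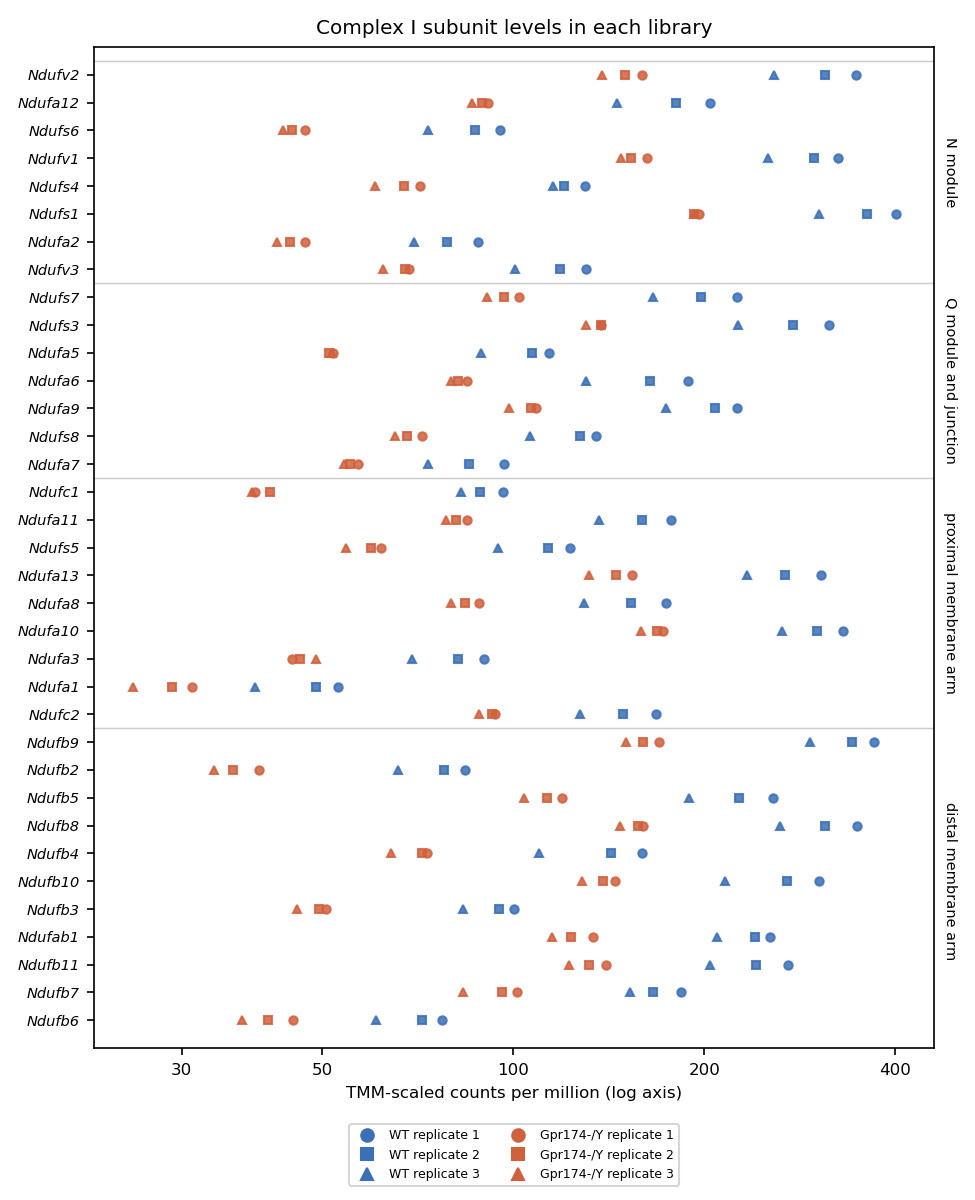
TMM-scaled CPM (log axis) of the 35 complex I subunit genes, grouped by the part of the complex, with a symbol for each of the 6 libraries (WT in blue, Gpr174-/Y in orange). The Gpr174-/Y libraries sit to the left of the WT libraries in all 35 genes, and WT replicate 3 is the WT library nearest to them.

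The calls did not hold without the middle library of each group, although all 35 held when only 1 of these middle libraries was left out. No other fit of 4 libraries was run, so the part of the smaller number of libraries in this loss was not tested. With replicates 1 and 3 only, a fit of 4 libraries, the log2 fold changes of the members kept their size (median −0.90), but adjusted p ranged from 0.0542 to 0.0732, so that 0 members and 0 genes overall passed, while all 35 members had an unadjusted p below 0.05. The size also depended on the scaling. When library totals were used without TMM factors, the median of all genes moved from 0.00 to 0.28 and that of the members from −0.92 to −0.64, so that the members stayed 0.92 below the median gene, and 35 of 35 were still lower. Over all genes, the TMM fit called 3972 lower and 3891 higher, total counts 2010 lower and 7303 higher, and limma on log2(TPM + 1) 1397 lower and 8391 higher.

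The N module binds NADH and takes up its electrons. All 8 of its genes were lower, with a median log2 fold change of −0.90. Ndufv1 carries the flavin and the NADH site, and had 325, 298 and 253 CPM in WT and 163, 154 and 148 CPM in Gpr174-/Y muscle (log2 fold change −0.91 ± 0.10, SE, adjusted p = 0.00107). Its partner Ndufv2, an iron-sulfur subunit, had 346, 310 and 258 CPM in WT and 160, 150 and 138 CPM in Gpr174-/Y muscle (−1.03 ± 0.12, adjusted p = 0.00117). Ndufv2 was the only N module gene past a log2 fold change of −1. Ndufs1, the large subunit that carries several of the clusters, had 402, 361 and 303 CPM in WT and 196, 193 and 193 CPM in Gpr174-/Y muscle (−0.87 ± 0.10, adjusted p = 0.00127). The Gpr174-/Y libraries of Ndufs1 were nearly equal while the WT libraries were not. The accessory genes Ndufa2, Ndufa12, Ndufs4, Ndufs6 and Ndufv3 fell by 0.82 to 0.99 on the log2 scale. Ndufs4 and Ndufs6, which are needed for the late steps of N module assembly, had log2 fold changes of −0.88 and −0.92.

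The Q module carries electrons to ubiquinone at the foot of the matrix arm. Its 7 listed genes, counting those at the junction to the membrane arm, were all lower, with a median of −0.97. Ndufs3 had 315, 276 and 226 CPM in WT and 137, 137 and 130 CPM in Gpr174-/Y muscle (−1.01 ± 0.12, adjusted p = 0.00122). Ndufs7, which holds the last iron-sulfur cluster before ubiquinone, had 225, 197 and 166 CPM in WT and 102, 96.8 and 90.8 CPM in Gpr174-/Y muscle (−1.02 ± 0.11, adjusted p = 0.00112). Ndufs8, another cluster-bearing core subunit, had 135, 127 and 106 CPM in WT and 71.7, 68.0 and 65.2 CPM in Gpr174-/Y muscle (−0.85 ± 0.10, adjusted p = 0.00112). These 3 genes were thus close to halved, and their 95% intervals overlapped.

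Ndufa7, an accessory subunit of the matrix arm, showed the smallest change of all 35. It had 96.8, 85.1 and 73.3 CPM in WT and 56.8, 55.3 and 54.1 CPM in Gpr174-/Y muscle (−0.62 ± 0.10, adjusted p = 0.00288). Its 95% interval, −0.85 to −0.38, lay wholly above the median of the members. The groups still did not overlap. Ndufa5, Ndufa6 and Ndufa9, the last a relative of short-chain dehydrogenases at the junction of the arms, had log2 fold changes of −1.0006, −0.97 and −0.96.

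The proximal membrane arm anchors the matrix arm in the inner membrane. It held the largest decrease as well as several of the smallest, and its 9 genes, all lower, had a median of −0.86. Ndufc1, a small membrane subunit, had 96.3, 88.7 and 82.6 CPM in WT and 39.2, 41.3 and 38.7 CPM in Gpr174-/Y muscle (−1.16 ± 0.07, adjusted p = 0.000371). Its 95% interval, −1.33 to −1.002, lay wholly below the members' median, and it was the only member for which this held. Ndufc2, a subunit of the same region, had 168, 149 and 127 CPM in WT and 93.5, 92.7 and 88.3 CPM in Gpr174-/Y muscle (−0.69 ± 0.10, adjusted p = 0.00209). The 95% interval of Ndufc2, −0.93 to −0.45, did not overlap that of Ndufc1, and the difference between both genes was not tested.

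Ndufa1, an X-linked gene whose product is needed for assembly of the complex, had the lowest CPM of the members. It had 52.9, 48.9 and 39.2 CPM in WT and 31.2, 29.0 and 25.1 CPM in Gpr174-/Y muscle (−0.73 ± 0.13, adjusted p = 0.00392, the weakest of the 35). The lowest WT library stood 1.26-fold above the highest Gpr174-/Y library, the narrowest gap of any member. Ndufa3, Ndufa8, Ndufa10, Ndufa11, Ndufa13 and Ndufs5 had log2 fold changes between −0.96 and −0.78. Ndufa13, also known as GRIM-19, stood at −0.91.

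The distal membrane arm, the far end of the proton-pumping part, was represented by 11 genes, all lower with a median of −0.94. Ndufb9 had 370, 342 and 293 CPM in WT and 170, 160 and 151 CPM in Gpr174-/Y muscle (−1.07 ± 0.10, adjusted p = 0.000788). Ndufb2 had 84.0, 77.9 and 65.7 CPM in WT and 39.7, 36.2 and 33.8 CPM in Gpr174-/Y muscle (−1.05 ± 0.10, adjusted p = 0.00087). Both genes fell to less than 50% of the WT mean. Ndufb8, often used as a marker protein of assembled complex I, had 348, 310 and 264 CPM in WT and 160, 158 and 148 CPM in Gpr174-/Y muscle (−0.99 ± 0.11, adjusted p = 0.00102). Ndufb10 had 304, 270 and 216 CPM in WT and 145, 139 and 128 CPM in Gpr174-/Y muscle (−0.94 ± 0.13, adjusted p = 0.00171). As in the other modules, WT replicate 3 was the nearest WT library to the Gpr174-/Y group. Ndufab1, the mitochondrial acyl carrier protein, which also serves fatty acid and iron-sulfur cluster synthesis, had a log2 fold change of −0.92. The smallest change of the arm was that of Ndufb6, at −0.77.

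The study's own cutoff joined the adjusted p with an absolute log2 fold change above 1. By that rule 7 of the 35 members were called (background 4.84% of tested genes) as lower, and 0 as higher (background 3.45%). They were Ndufc1, Ndufb9, Ndufb2, Ndufv2, Ndufs7, Ndufs3 and Ndufa5. Just inside the limit stood Ndufa5 at −1.0006 and just outside it Ndufb5, at −1 after rounding, followed by Ndufa12 at −0.99, so the cutoff divides genes with nearly equal changes. The number past it was 1 without WT replicate 1 and 19 without WT replicate 3, the number without any other single library lying between these, and it was 0 with total counts. For 33 of the 35 members the 95% interval contained the members' median.

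**Figure D2:**
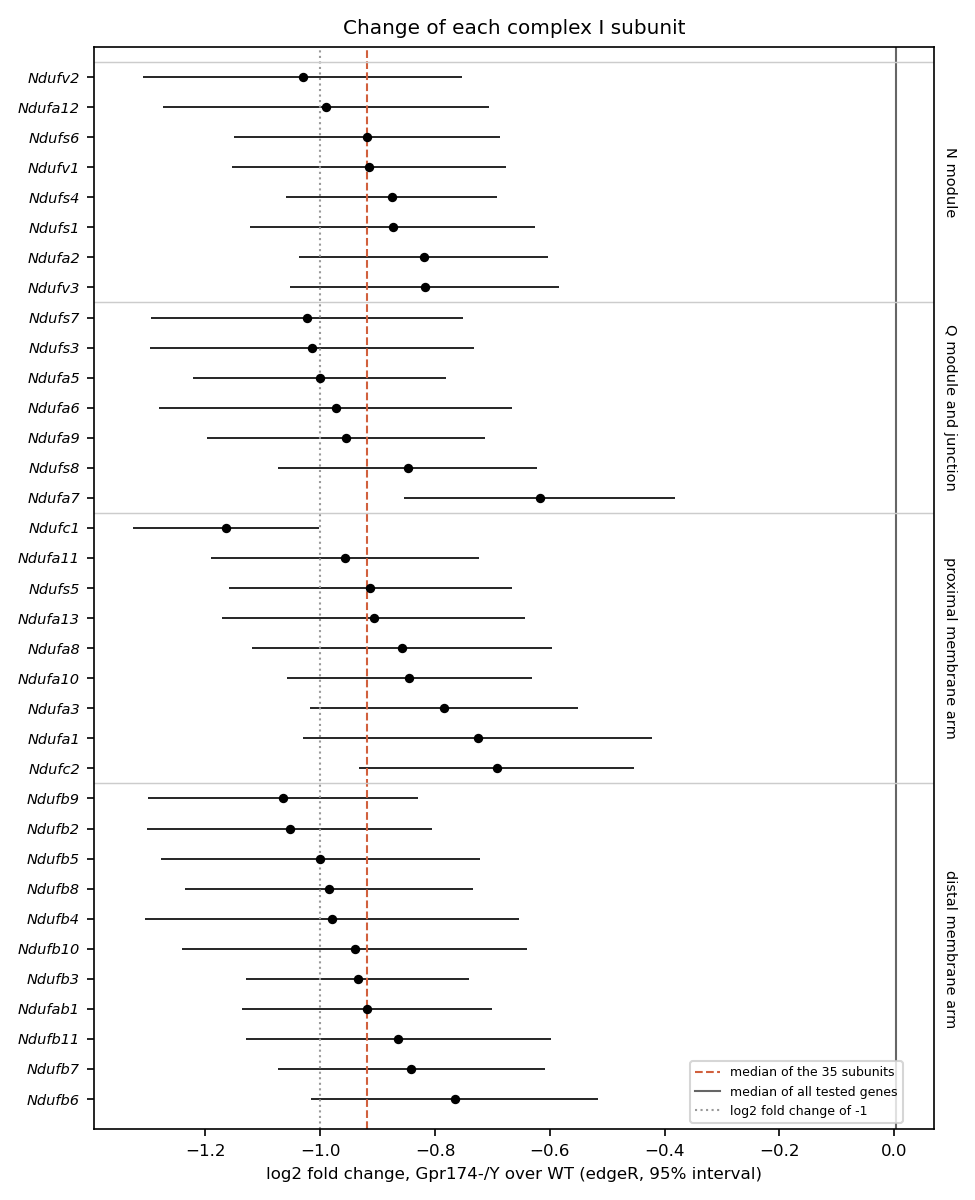
Log2 fold change of each complex I subunit gene, Gpr174-/Y over WT, with its 95% interval from edgeR, ordered within each part of the complex. All intervals lie below 0, and most contain the median of −0.92 (dashed), with Ndufc1 below it and Ndufa7 above it.

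Changes within the group were also expressed against the mean log2 level of the 35 members in the same library, which removes what the subunits share. On this scale 25 members differed by less than 0.1 between genotypes. Ndufc1 moved down by a further 0.26, from −0.79 ± 0.09 in WT to −1.05 ± 0.07 in Gpr174-/Y (SD, n = 3 each). Ndufa7 moved the other way, from −0.86 ± 0.02 to −0.57 ± 0.04, a difference of 0.29, and Ndufc2 moved from −0.06 ± 0.02 to 0.16 ± 0.03. The libraries of the groups did not overlap on this scale in 21 of 35 members, these 3 among them, with 10 lower and 11 higher in Gpr174-/Y. Deviations from the members' own mean balance out in each library, so some must rise where others fall. A share over all genes was not computed on this scale. In CPM, 32.4% of the tested genes lay below and 33.1% above WT without overlap. Ndufv1, at 0.92 ± 0.01 in WT and 0.91 ± 0.02 in Gpr174-/Y, is a member that kept its place.

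Per length, in TPM, the levels of the subunits spanned 8.70-fold in WT and 8.07-fold in Gpr174-/Y muscle. Ndufb9 was the highest at 895 TPM in WT and 563 TPM in Gpr174-/Y, followed by Ndufb8 (813 and 537 TPM) and Ndufb10 (713 and 489 TPM). Ndufa11 was the lowest at 103 and 69.7 TPM, preceded by Ndufs4 (140 and 100.04 TPM). The median over the members was 362 TPM in WT and 252 TPM in Gpr174-/Y muscle. The rank order was nearly the same in both genotypes (Spearman's rho 0.98 across the 35 genes, which share libraries and transcript lengths). TPM carries no composition factor, and the decrease in TPM was smaller than that in CPM.

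Several positions limit how reads can be assigned. In GENCODE annotation on GRCm38, 13 members share exon positions with a gene on the opposite strand, among them Ndufs6 with Mrpl36 and Ndufb5 with Mrpl47, and 3 (Ndufb2, Ndufb8 and Ndufb9) with a predicted gene on the same strand. Whether counting used the strand is not given in the sources used here. For 28 members the summed estimated counts were whole numbers in all libraries (within 0.005), so that no division of reads with another gene was visible. The same held for 42.5% of all listed genes. In the other members the sums were not whole in every library, and a division of their reads was not tested. The members lie on 15 chromosomes, 2 of them (Ndufa1 and Ndufb11) on X, the chromosome of Gpr174.

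The 35 genes were listed with 59 transcripts, and 19 had a single one. Shares of transcripts, which the choice of members did not use, were compared for 19 transcripts of 8 genes. None passed the correction (adjusted p at least 0.237, exact permutation test, where 0.1 is the smallest unadjusted p). Ndufv3, an N module subunit made in a short and a long form, is described because its transcripts differ by a known exon. The long transcript has an additional exon at chr17:31527310-31528401 (GRCm38, plus strand, 1092 bases, coding), giving 1404 instead of 312 coding bases. The short transcript had 94.4, 87.3 and 70.9 CPM in WT and 46.0, 43.0 and 38.9 CPM in Gpr174-/Y muscle. The long one had 35.8, 31.3 and 29.9 CPM in WT and 22.6, 24.4 and 23.3 CPM in Gpr174-/Y muscle. Both forms were lower without overlap between the groups, the short by 1.97-fold and the long by 1.38-fold. The share of the short form was 72.1% ± 1.66 in WT and 64.5% ± 2.34 in Gpr174-/Y muscle (SD, n = 3 each; adjusted p = 0.237, exact permutation test).

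Ndufb11, a distal arm subunit encoded on X, showed a somewhat larger shift in share. Its main RefSeq transcript had 225, 193 and 161 CPM in WT and 98.8, 94.2 and 90.8 CPM in Gpr174-/Y muscle. The minor transcript had 46.6, 48.6 and 43.3 CPM in WT and 41.2, 37.3 and 31.5 CPM in Gpr174-/Y muscle. The main form was 2.04-fold lower and the minor form 1.26-fold lower, and the share of the minor form was 19.5% ± 2.11 in WT and 27.9% ± 1.89 in Gpr174-/Y muscle. For Ndufs1 the transcripts have nearly identical sequence, since 4 of them match 1 GENCODE transcript, so their division is uncertain. Its 5 transcripts are among the 19 compared, and their shares are not described.

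**Figure D3:**
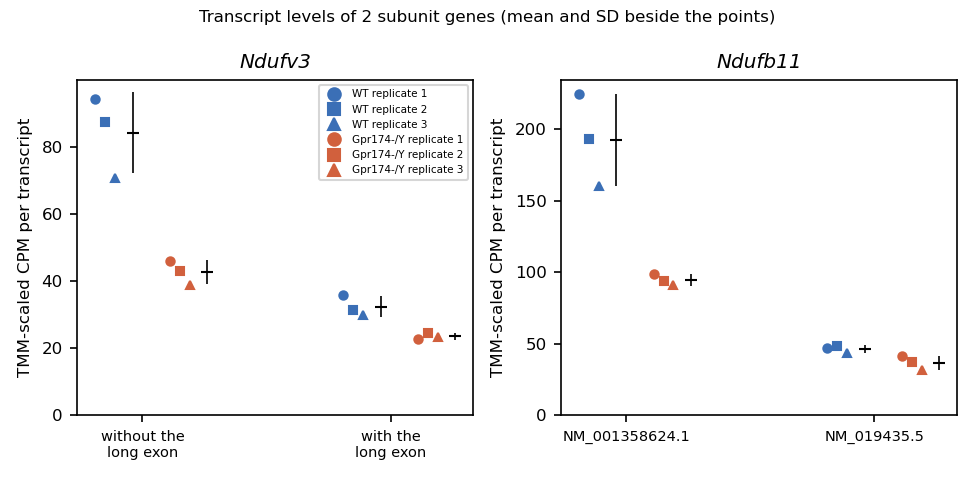
TMM-scaled CPM of the transcripts of Ndufv3 (with and without the long exon) and Ndufb11, in each library, with the mean and SD of each group (n = 3) drawn beside the points. The abundant transcript of each gene is about halved in Gpr174-/Y, while the less abundant one is lower by a smaller factor.

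The other complexes of oxidative phosphorylation were lower too. All 4 genes of complex II (succinate dehydrogenase, median −0.88), all 9 of complex III (median −0.98) and all 15 of the ATP synthase (median −0.88) passed the test as lower. Of complex IV (cytochrome c oxidase), 12 of 14 genes were lower and 2 were higher, with a median of −0.89. The muscle forms Cox7a1, Cox8b and Cox6a2 fell by 1.76, 1.49 and 1.45 on the log2 scale, whereas Cox6a1, the form found widely outside heart and skeletal muscle, rose by 0.42 and Cox8a by 0.31. The members of complex III spanned −1.05 to −0.74, no wider a range than that of the complex I subunits. The summed level of complex I divided by that of complex II was 3.70, 3.75 and 3.84 in WT and 3.69, 3.73 and 3.75 in Gpr174-/Y libraries, which overlap. The ratio to complex III was 1.78 ± 0.02 in WT and 1.85 ± 0.01 in Gpr174-/Y (SD, n = 3 each; exact permutation p = 0.1, the smallest possible), a change of 1.04-fold.

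Complex I cannot be built without assembly factors, which do not remain in the finished enzyme. Of 18 tested factors 17 were lower and 1, Ndufaf2, showed no call (6.47, 6.31 and 6.74 CPM in WT and 6.79, 6.31 and 5.91 CPM in Gpr174-/Y), and the median was −0.49. Ndufaf5, which modifies Ndufs7, and Ndufaf1 changed by −1.02 and −0.99, close to the subunits, as did Ecsit at −0.90. The ratio of complex I subunits to assembly factors was 10.95 ± 0.37 in WT and 8.58 ± 0.10 in Gpr174-/Y (SD, n = 3 each; exact permutation p = 0.1), without overlap. With total counts 9 of the 18 factors were called lower, and on TPM 5 were lower and 1 higher.

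**Figure D4:**
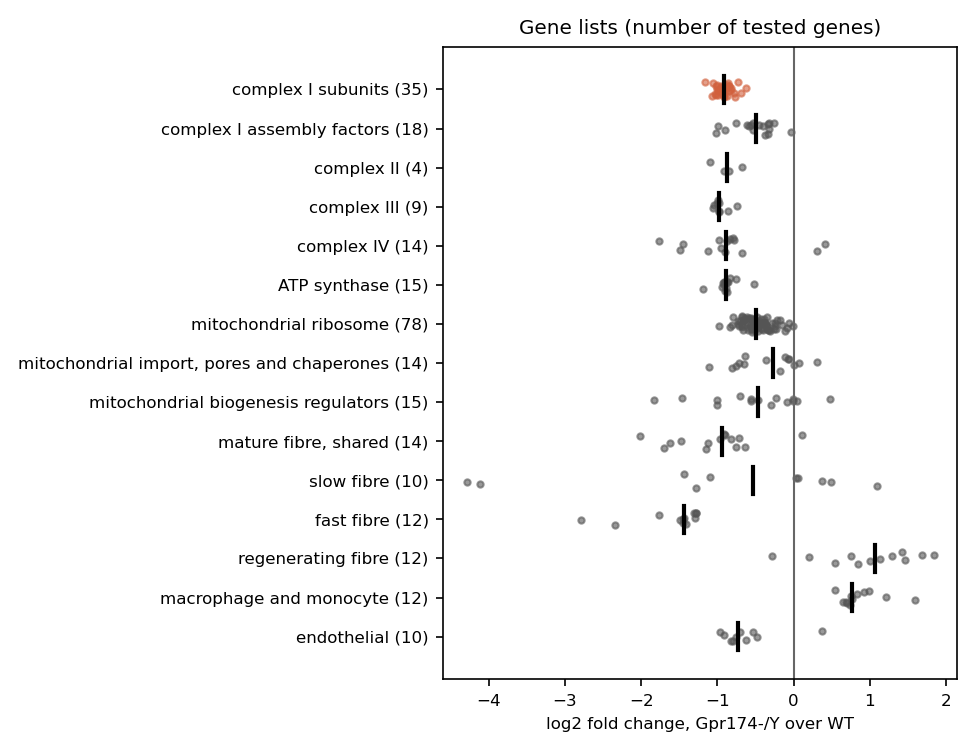
Log2 fold change (Gpr174-/Y over WT) of each tested gene in the lists named at the left, with the number of tested genes in parentheses and a bar at the list's median. The thin line is the median of all tested genes (0.00). The complex I subunits (orange) form a narrow group around −0.92.

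Genes for proteins of the mitochondrial ribosome, which makes the mitochondrially encoded subunits, were lower in 72 of 78 cases with a median of −0.49, a smaller difference than for complex I. Under total counts 46 were lower and 4 higher (median −0.21), and on TPM 30 were lower and 8 higher (median −0.09). The summed level of complex I over the mitochondrial ribosome was 1.79, 1.71 and 1.57 in WT and 1.28, 1.27 and 1.27 in Gpr174-/Y libraries (exact permutation p = 0.1). Genes for import, outer membrane pores and chaperones were mixed. There, 8 of 14 were lower and 1 was higher, with a median of −0.27. With total counts 6 were lower and 6 higher (median 0.01), and on TPM 6 were lower and 7 higher (median 0.13). Vdac1, the main pore of the outer membrane, fell by 1.11, and Immt, Vdac3 and Timm23 fell by 0.81, 0.76 and 0.71 on the log2 scale, while the chaperonin gene Hspe1 rose by 0.31.

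Among 15 regulators of mitochondrial biogenesis, 9 were lower and 1 was higher, with a median of −0.47. With total counts 7 were lower and 5 higher (median −0.20), and on TPM 4 were lower and 5 higher (median 0.01). Ppargc1a, the coactivator PGC-1α, had 42.1, 55.3 and 80.2 CPM in WT and 23.0, 28.9 and 36.9 CPM in Gpr174-/Y muscle (−1.0006 ± 0.26, adjusted p = 0.0167). In contrast to the subunits, it was highest in WT replicate 3 and lowest in WT replicate 1. Esrra, the estrogen-related receptor that works with PGC-1α, had 75.0, 68.4 and 55.1 CPM in WT and 47.0, 44.8 and 42.3 CPM in Gpr174-/Y muscle (−0.56 ± 0.11, adjusted p = 0.00622). Nrf1, whose letters were found in the promoters above, had 23.5, 23.4 and 23.2 CPM in WT and 21.7, 23.3 and 24.9 CPM in Gpr174-/Y muscle (0.00 ± 0.06, adjusted p = 0.968). Gabpa, the DNA-binding part of GABP, had 53.1, 52.4 and 51.2 CPM in WT and 52.5, 54.4 and 54.1 CPM in Gpr174-/Y muscle (0.04 ± 0.04, adjusted p = 0.480). Neither Nrf1 nor Gabpa passed the test with TMM, and their flat level depends on this scaling. Nrf1 had 10.02, 10.65 and 11.73 TPM in WT and 13.38, 15.05 and 16.43 TPM in Gpr174-/Y muscle. Gabpa had 17.88, 18.6 and 19.13 TPM in WT and 23.83, 25.33 and 26.13 TPM in Gpr174-/Y muscle. With limma on log2(TPM + 1), 8391 genes were called higher. The largest decreases in this list were those of Perm1, a muscle regulator of oxidative genes, at −1.83 and of Ppara at −1.47, and Esrrb (−1.001) had at most 1.87 CPM. Pprc1, a relative of PGC-1α, rose by 0.48.

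In every library transcripts of mature fibres summed to 40929 CPM or more, so the labelled muscle carried its markers. Marker transcripts of the tissue also differed between the groups, while its makeup was not measured. Markers of mature fibres were lower, with 13 of 14 genes shared by fibre types (median −0.94, summed level 84708 to 104848 CPM in WT and 40929 to 46164 CPM in Gpr174-/Y) and 12 of 12 fast fibre genes (median −1.44, 95962 to 145936 against 42098 to 46280 CPM). Myoglobin (Mb), Tcap, Casq1 and Ckm fell by 2.02, 1.70, 1.63 and 1.48 on the log2 scale, and Myh2, Pvalb, Myh1 and Myh4 by 2.80, 2.34, 1.76 and 1.49. Slow fibre genes were mixed, 5 of 10 lower and 2 higher, with overlapping sums (1482 to 2286 against 1646 to 1798 CPM). With total counts 3 were lower and 4 higher, and on TPM 3 were lower and 5 higher. Myl2 and Myl3, the slow myosin light chains, had log2 fold changes of −4.29 and −4.11, Myh7 of −1.43 and Csrp3 of −1.29, and Tnnc1 and Tpm3 rose by 1.09 and 0.37. Per unit of fast fibre transcript, complex I was higher in Gpr174-/Y muscle, with ratios of 0.0476, 0.0501 and 0.0553 in WT and 0.0736, 0.0734 and 0.0732 in Gpr174-/Y libraries (1.44-fold, exact permutation p = 0.1). Against the summed markers shared by all mature fibres the ratio was 1.15-fold higher, again without overlap. Acta1 weighs most in that sum, with a mean of 44328 CPM in WT and 19976 CPM in Gpr174-/Y muscle. Gene by gene, the median log2 fold changes were close, at −0.94 for the shared markers and −0.92 for complex I.

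Genes of regenerating fibres and of other cells moved as well. Of 12 regenerating fibre genes 9 were higher (median 1.07), among them Mymx, Chrng, Mymk and Myog, which rose by 1.84, 1.68, 1.46 and 1.42, although their summed level overlapped (7093 to 9367 CPM in WT and 8765 to 10799 CPM in Gpr174-/Y). All 12 macrophage and monocyte genes were higher (median 0.76, 1652 to 2568 against 3795 to 3885 CPM), led by Itgam, Cd68, Lyz2 and Cd14. Endothelial genes were lower for 9 of 10, led by Cldn5, Kdr, Cdh5 and Egfl7 (sum 1077 to 1264 against 684 to 774 CPM), and Vwf was higher. Of 9 fibroblast genes 4 were higher and 3 lower (16899 to 25199 against 33074 to 36326 CPM), with Postn and the fibrillar collagens Col1a1, Col1a2 and Col3a1 up and Lum, Dcn and Pdgfra down. These fibroblast counts depended on the scaling. With total counts and on TPM 6 were higher and 2 lower, and with the replicate block 3 were higher and 3 lower. Of 4 tested adipocyte genes 2 were higher, Adipoq and Plin1 (sum 112 to 165 against 148 to 190 CPM), and Ucp1, which marks brown fat, had at most 2 counts in any library. T cell markers showed 0 calls among 5 in edgeR (1 at an unadjusted p below 0.05), and 0 in DESeq2 and limma voom. With total counts 2 were higher, and on TPM 3 were higher. Their TMM-scaled sum was 12.6 to 22.9 against 22.7 to 24.4 CPM. Of 2 tested neutrophil genes Csf3r was higher and Cxcr2 lower (sum 21.0 to 28.0 against 31.4 to 34.4 CPM). No neutrophil gene was called lower with total counts, on TPM or with the replicate block. The part of these tissue markers in the decrease of complex I was not tested.

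**Figure D5:**
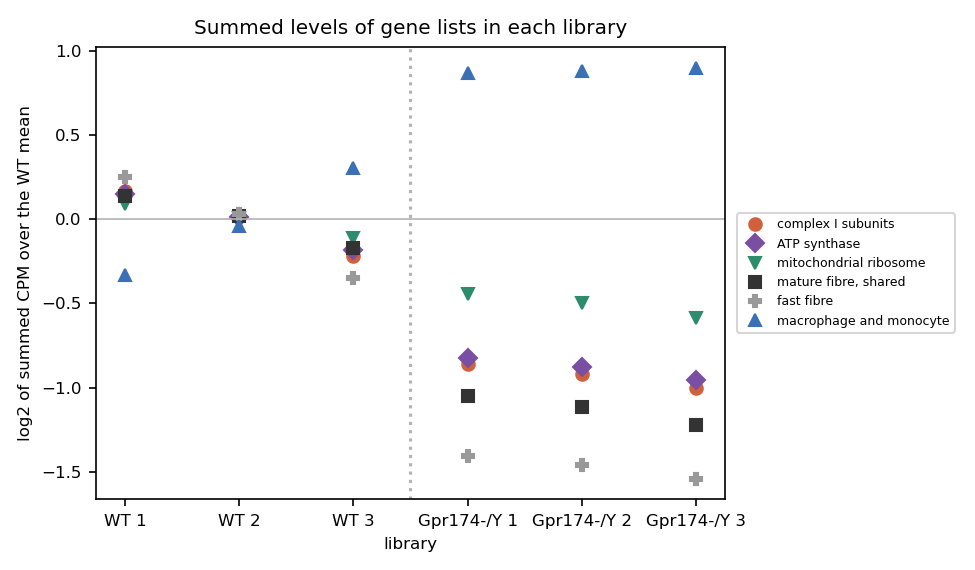
Summed TMM-scaled CPM of 6 gene lists in each library, as log2 over the mean of the WT libraries. Complex I (orange) and the ATP synthase (violet) lie almost on each other in every library, in the Gpr174-/Y libraries the fibre lists lie below and the mitochondrial ribosome above them, and the macrophage list is reversed in order, with WT replicate 3 nearest to the Gpr174-/Y group.

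In summed levels, the same order of WT libraries was seen for complex I, for mature and fast fibre markers and, reversed, for macrophage markers. Single fibre markers did not all follow this order. From WT replicate 1 to WT replicate 3, Myh4 fell from 31348 to 10481 CPM. Over the same libraries Myh1 rose from 8144 to 11973 CPM and Des from 5513 to 6382 CPM. WT replicate 3 had the lowest complex I sum (5310 CPM), the lowest fast fibre sum (95962 CPM) and the highest macrophage sum (2568 CPM) of the WT libraries. Leaving it out widened the median difference of the members to −1.001, and leaving out WT replicate 1 narrowed it to −0.82. All 35 members were lower in each of these fits.

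To set the members against genes of like abundance, the 4538 tested genes within the members' range of mean CPM (37.7 to 275) were examined. Their median log2 fold change was −0.01 with an SD of 0.50, and 34.3% of them were lower. Over all tested genes, 6.29% had a log2 fold change below the median of the complex I subunits.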

How the data were processed

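RNA sequencing of 6 libraries (2 groups, 3 mice each) was made on the BGISEQ-500 platform by BGI per the study's methods, while the labels name an Illumina TruSeq kit. In the deposited table, 58843 RefSeq transcripts carry expected counts (estimates, not always whole, without normalization), and the authors also gave TPM and FPKM, both scaled for length and library size. The authors' group means and FPKM were not used. The submitters' processing notes name HISAT2 2.0.4, Bowtie2 2.2.5, RSEM 1.2.12 and GRCm39, with no role given. Positions printed here are on GRCm38 (GENCODE and RefSeq tables).

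Samples were mapped to groups by their labels, with 0 unmapped columns. Counts were summed per Entrez gene and rounded (99.7% of genes with a symbol). The test was edgeR 4.0.16 (R 4.3.3, TMM, filterByExpr, robust quasi-likelihood F-test, Benjamini-Hochberg over 14395 genes, adjusted p under 0.05). It was also run on simulated counts of independent libraries with few changed genes. That setting is unlike these data, and its result is not given here. The study used DEGseq, which was replaced because it was not at hand. Exact permutation tests used scipy 1.17.1. Intervals and p-values cover the spread between 3 libraries a group at 18417077 to 19394469 counts. Alternatives were other scalings, filters and tests (DESeq2 1.42.0, limma 3.58.1 voom, limma on log2(TPM + 1) and log2(TPM + 0.1) of genes with at least 1 TPM in 3 libraries), a replicate block, each library left out, and replicates 1 and 3 only. The members, gene lists and motif letters were chosen with earlier results of these data known. Values in every sample were given for the 3 members with the lowest and the 3 with the highest log2 fold change, the 3 with the highest mean TPM and the core subunits, and for Ppargc1a, Esrra, Nrf1 and Gabpa. Of each other list up to 4 genes were named by size of change, most with the fold change or the name alone. Ndufaf2, Cox6a1, Cox8a, Hspe1, Pprc1, Acta1, Des, Tnnc1, Tpm3, Vwf, Col3a1, Dcn, Pdgfra, Ucp1, Mrpl36, Mrpl47 and the remaining members were named after their values were seen.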

Additional observations from a re-analysis of the deposited data

How the results depend on the processing

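Over 17 alternatives the 35 members gave 595 single comparisons, of which 560 kept direction and call, 35 lost the call and 0 reversed. All 35 losses came with replicates 1 and 3 only, where 0 members and 0 genes in either direction passed in edgeR. The number of members past a log2 fold change of −1 was 7, and became 4 with upper-quartile normalization and 0 with total counts, with both TPM fits and with replicates 1 and 3 only. It ranged from 1 to 19 when a library was left out (1 without WT replicate 1, 5 without WT replicate 2, 19 without WT replicate 3, 11 without Gpr174-/Y replicate 1 and 3 without Gpr174-/Y replicate 3). The members' median of −0.92 was −0.64 with total counts, −0.52 with log2(TPM + 1) and −0.52 with log2(TPM + 0.1), where the median of all genes was 0.28, 0.36 and 0.40, and it ranged from −1.0014 to −0.82 with a library left out. Of all genes, 3972 were lower and 3891 higher; these were 2010 and 7303 with total counts, 1397 and 8391 with log2(TPM + 1), and 1388 and 8363 with log2(TPM + 0.1). The causes were not tested.

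Same-numbered mice are different animals, and over all tested genes their deviations from the group mean correlated by 0.016, −0.028 and −0.008. A value over all genes does not show whether a part of them shares an order. The summed level of complex I fell with the replicate number in both groups. With the replicate block, 35 members were lower, 6 past −1, and 3507 genes were lower and 3305 higher. With 3 mice a group, no exact test of a single value can go below p = 0.1.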
